A study of Rattus norvegicus with 24 samples.

Results

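Chaperones and protein disulfide isomerases were followed as a group of genes through the nucleus accumbens (NAc) of rats given methamphetamine (METH). Members were all array probes whose annotated gene symbol began with Hsp, Dnaj, Pdia or Cct and a number, together with Calr, Canx, Cryab, Cryaa, P4hb and Tcp1, and without Hspg2, which encodes a matrix proteoglycan. This gave 81 probes of 79 genes among the 22523 probes of the array. By lists of genes for the place where the protein works, 21 probes were assigned to the endoplasmic reticulum (ER), 45 to the cytosol and nucleus, 10 to mitochondria and 5 to the vesicle cycle. The lists are approximate. Dnajc14 was counted in the vesicle cycle although its protein is known from the ER membrane, so the ER counts leave it out. It did not pass the threshold used below in any comparison.

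The animals were male Sprague-Dawley rats, injected first with saline or METH at 10 mg/kg and again after a month with saline or METH at 2.5 mg/kg. The tissue was taken 2 h after the last injection. The group SS received saline at both injections (n = 4 arrays), SM saline and then METH (n = 6), MS METH and then saline (n = 7) and MM METH both times (n = 7). Total RNA from dissected NAc tissue, for which the source field of the labels says only striatal tissue, was labelled with biotin and hybridised to 1-colour Illumina arrays. The labels do not say that each array was made from a different rat, so p-values measure the spread between arrays.

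Chaperones help new or damaged proteins to fold. HSP70 proteins hold unfolded chains in cycles driven by ATP, J proteins (the Dnaj genes) hand clients to them, HSP90 proteins finish signalling proteins such as kinases and steroid receptors, small heat shock proteins keep damaged proteins from aggregating, and the ring-shaped TRiC complex (the Cct genes and Tcp1) folds actin and tubulin. The ER has a set of its own. BiP (Hspa5) and GRP94 (Hsp90b1) are its HSP70 and HSP90, calreticulin (Calr) and calnexin (Canx) bind sugar chains on new glycoproteins, and the protein disulfide isomerases (P4hb and the Pdia genes) form and rearrange disulfide bonds. When unfolded proteins build up in the ER, the unfolded protein response raises these genes through the transcription factors ATF6 and XBP1, while heat shock factor HSF1 raises the cytosolic set.

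The DNA elements of those 2 responses are shown first, because the ER stress element was found in windows of ER members alone among the members, although most windows of either compartment held no element. RefSeq promoter windows of the build GRCr8, 250 bases before to 50 after the start of the gene, were found for 65 of the 79 member genes. The ER stress element was searched as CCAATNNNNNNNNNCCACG on both strands, and the window of 5 of 18 ER members held it, against 22 of 33469 windows of all genes (0.0657%). None of the 35 cytosolic, 8 mitochondrial and 4 vesicle-cycle windows did. The 5 were Hspa5, Hsp90b1 (2 copies), Calr, Dnajc3 and Canx, and their stretches upstream of the start are printed 5′ to 3′ on the strand of the gene, with the element in capitals. In Calr and the second copy of Hsp90b1 it lies on the opposite strand.
Hspa5 (GRCr8 chr3:38452948-38453015, plus strand): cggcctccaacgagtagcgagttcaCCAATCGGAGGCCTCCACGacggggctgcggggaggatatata
Hsp90b1 (GRCr8 chr7:23012322-23012494, minus strand): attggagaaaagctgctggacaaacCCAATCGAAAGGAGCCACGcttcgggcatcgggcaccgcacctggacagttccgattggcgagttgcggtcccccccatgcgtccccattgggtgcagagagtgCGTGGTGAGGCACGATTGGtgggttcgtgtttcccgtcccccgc
Calr (GRCr8 chr19:40213117-40213178, plus strand): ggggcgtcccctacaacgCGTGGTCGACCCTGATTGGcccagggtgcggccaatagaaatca
Dnajc3 (GRCr8 chr15:102432509-102432577, plus strand): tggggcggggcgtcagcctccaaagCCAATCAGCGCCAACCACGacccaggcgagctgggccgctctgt
Canx (GRCr8 chr10:35158044-35158107, minus strand): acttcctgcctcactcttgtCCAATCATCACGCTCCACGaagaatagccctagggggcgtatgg

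A further ER element, TGACGTGG, was held by the windows of Dnajc10 and Dnajc25 and by 0.595% of all windows, and overlapped none of the ER stress elements in members. The heat shock element was searched as 3 alternating blocks of TTC and GAA with any 2 bases between them (TTCNNGAANNTTC or GAANNTTCNNGAA). It was held by 3 of 35 cytosolic windows (Cct4, Dnaja1 and Hsph1), by 2 of 8 mitochondrial windows (Hspd1 and Hspe1), by no ER window and by 0.798% of all windows. Hspd1 and Hspe1, the mitochondrial chaperonin and its lid, lie head to head on chromosome 9 and share 1 stretch, in which 2 overlapping heat shock elements form the capitals. It is shown to set this shared element beside the ER elements above.
Hspe1 (GRCr8 chr9:64084237-64084304, plus strand): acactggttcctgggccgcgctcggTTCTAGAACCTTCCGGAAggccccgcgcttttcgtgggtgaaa
A match is a description of the letters only, and promoter entries were not used for 14 genes, among them Cryab, Hsp90aa1, Pdia3 and Pdia6.

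The median raw intensity of an array was 10.0 to 23.0 and 49.3% to 53.8% of its probes were detected at a detection p under 0.05. Of the members, 61 probes were detected on all 24 arrays and 11 on none, and 65 probes (65 genes) passed the filter of detection on at least 4 arrays and were tested: 19 for the ER, 34 for the cytosol, 9 for mitochondria and 3 for the vesicle cycle. The inducible HSP70 gene Hspa1b and its partner Hsph1 were not detected on any array, nor were Dnajb8, Dnajb12, Hspb2, Hspb3, Hspb7, Hspb9 and Cct8l2. The remaining undetected probes were the second probes of Dnajb11 and Hsp90ab1. The tested probe of Hsp90ab1 was dim and was detected on 11 arrays, and no probe was annotated with the symbol Hspa1a, Hspa8, Cryaa or Cct8. Dnajb13, Dnajc28, Dnajc5b, Dnajc5g and Dnajc8 were detected on 1 to 3 arrays and were not tested. Values below are log2 signals after normalization, which order arrays within a probe but not probes against each other. Tests are from limma, fitted to all 12943 probes that passed the filter, and a probe was called when its Benjamini-Hochberg adjusted p over those probes was under 0.05.

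A month after METH, without a second dose, 9 of the 19 tested ER probes were called lower than in saline rats, 1 was called higher and 9 were not called (MS against SS), where 9.24% of all probes were called lower and 8.81% higher. The ER probes called lower encode the HSP90 of the ER, BiP, 3 J proteins of the ER (Dnajb11, Dnajc3 and Dnajc25), calreticulin and the disulfide isomerases Pdia3, Pdia4 and Pdia5. In the cytosol 5 of 34 probes were called lower and 2 higher, in mitochondria 0 of 9 in either direction, and in the vesicle cycle 1 of 3 higher. The median log2 difference was -0.14 over ER probes and -0.06 over cytosolic probes, against 0.00 over all probes. In 8 of the 19 ER probes every MS array lay below every SS array, as in 5.51% of all probes and 4 of 34 cytosolic probes.

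**Figure D1:**
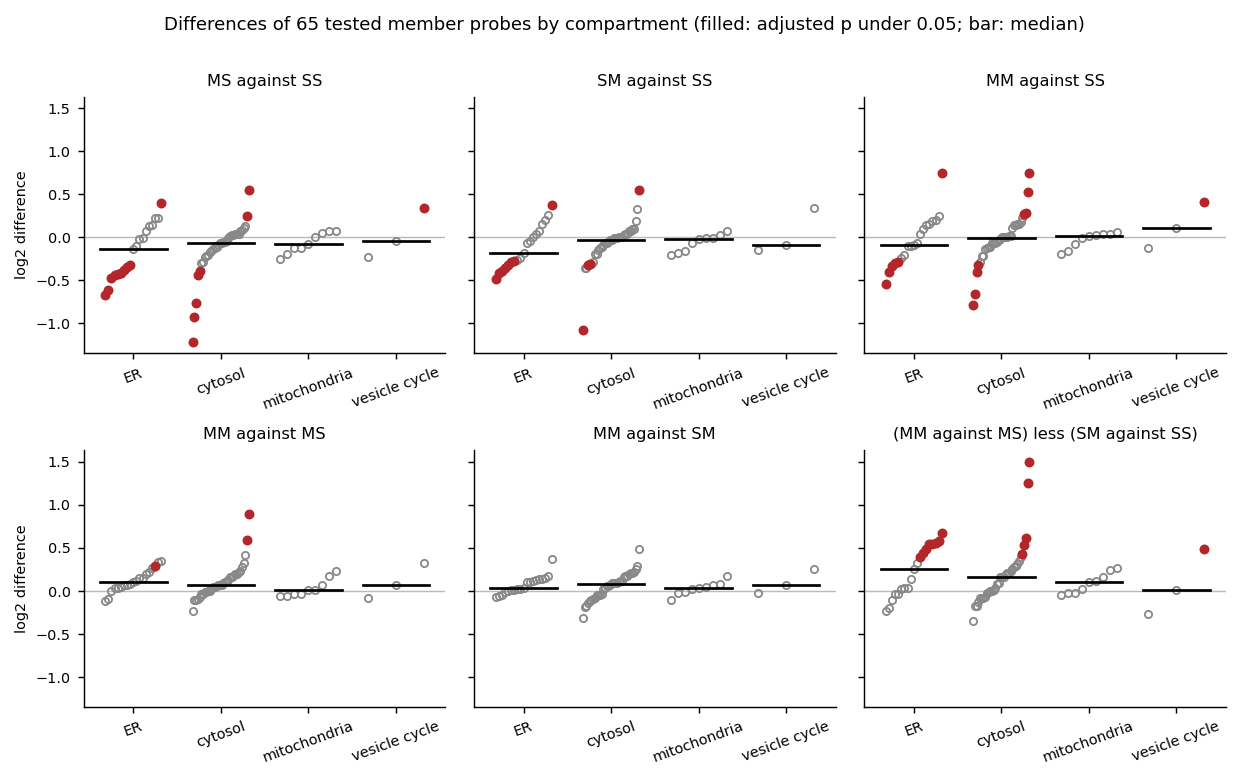
Log2 differences of the 65 tested member probes (vertical axis) by compartment (horizontal axis) in the 6 comparisons. Each point is a probe, filled where it was called, and bars are medians. In MS against SS 9 of 19 ER points are filled below 0, and none of the 9 mitochondrial points is filled in any panel.

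In SM against SS, which asks what a first METH dose of 2.5 mg/kg had done 2 h later, 7 of 19 ER probes were called lower and 1 higher, with 7.59% of all probes called lower and 6.08% higher. Of the cytosolic probes 3 were called lower and 1 higher. In MM against SS 5 ER probes were called lower and 1 higher, and 4 cytosolic probes lower and 4 higher, with 11.5% of all probes lower and 11.0% higher. The ER medians were -0.18 and -0.09, and the cytosolic medians -0.03 and -0.01. These comparisons share the 4 SS arrays, so a shift in those arrays enters each of them. Without SS replicate 2 the count of members called in SM against SS fell from 12 to 6, and the share of all probes called without it was not recorded.

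**Figure D2:**
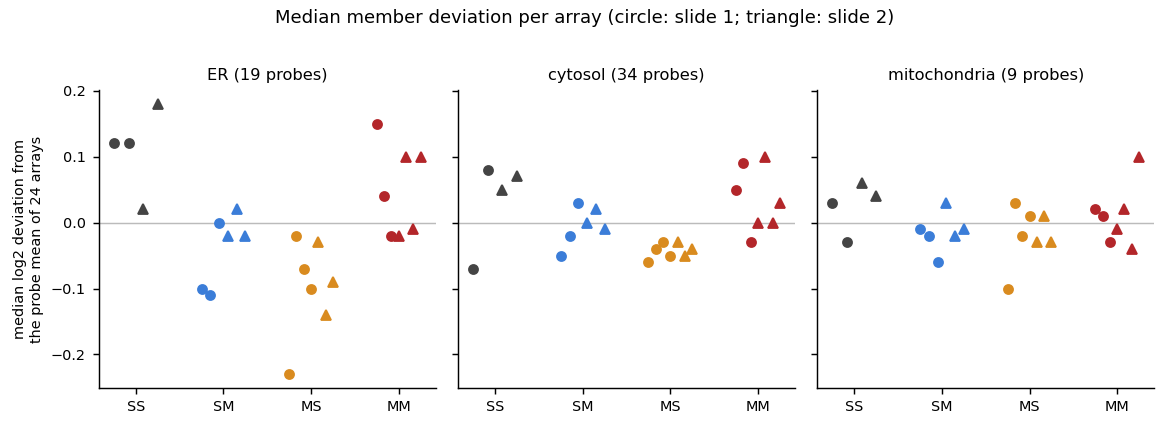
Median log2 deviation of the tested ER, cytosolic and mitochondrial probes from their means over 24 arrays (vertical axis), 1 point per array, by group and slide. The ER medians lie between 0.02 and 0.18 in SS and between -0.23 and -0.02 in MS, with no overlap. The cytosolic medians of the same groups overlap through SS replicate 1 alone, and the mitochondrial medians overlap.

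The ER median deviation was 0.02 to 0.18 in SS, -0.11 to 0.02 in SM, -0.23 to -0.02 in MS and -0.02 to 0.15 in MM. In these ER medians the MS and SS arrays did not overlap, and the MM arrays overlapped those of SS and SM. The cytosolic median deviation was smaller but nearly as separate, at -0.06 to -0.03 in MS. SS replicate 1 (-0.07) lay below every MS array, and SS replicates 2, 3 and 4 (0.08, 0.05 and 0.07) lay above every one. On slide 1 alone, with 2 SS arrays, the ER median was -0.27 in MS against SS with 4 ER probes called lower. On slide 2 alone it was -0.19, with 5 called lower and 1 higher. In SM against SS 0 ER probes were called on slide 1, and 3 lower and 3 higher on slide 2 (ER medians -0.12 and -0.14). In MM against SS 1 was called lower on slide 1, and 3 lower and 2 higher on slide 2 (ER median -0.04 on each). The shares of all probes called on each slide alone were not recorded.

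Genes of the cells that make up the tissue moved with the same groups. All 12 medium spiny neuron marker genes, which mark the principal neurons of the NAc, were called lower in MS and in MM than in SS, and 10 of 12 in SM. Their summed level was 55016 to 61183 in the SS arrays and 30162 to 43480 in all others. Of 10 tested marker genes of hypothalamus and preoptic area, 6, 5 and 5 were called higher in MS, SM and MM than in SS, with a summed level of 913 to 1291 in SS and 1900 to 2994 elsewhere, and Sim1 was not detected on any array. Of 3 tested markers of glutamatergic cortex, 3, 1 and 1 were called lower in MS, SM and MM, with a summed level of 94 to 107 in MS and 141 to 312 in SS, and of 3 endothelial markers 1, 2 and 2 were called lower. No microglial marker of 7 was called against SS. Their part in the chaperone results was not tested. In RNA from a piece of tissue, fewer cells of a type and less RNA per cell cannot be told apart.

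GRP94 (Hsp90b1), the ER HSP90 that folds integrins and Toll-like receptors, was lower in all 3 METH groups. Its log2 signal was 12.03, 11.88, 11.86 and 11.85 in the SS arrays, 11.26 to 11.72 in SM (median 11.40), 11.19 to 11.43 in MS (median 11.32) and 11.18 to 11.56 in MM (median 11.40). Every array of the 3 METH groups lay below every SS array. The log2 difference was -0.61 ± 0.08 (SE) in MS, 65.7% of the SS level (adjusted p = 6.68e-06), -0.48 ± 0.09 in SM (adjusted p = 0.000273) and -0.54 ± 0.08 in MM (adjusted p = 2.69e-05). A two-sided exact permutation test of MS against SS gave p = 0.00606, the smallest that 4 against 7 arrays allow. That value follows from the lack of overlap and adds nothing to it. Within slide 1 and slide 2 the MS difference was -0.67 and -0.53 (adjusted p = 0.0176 and 0.00497).

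BiP (Hspa5), the ER HSP70 and sensor of unfolded protein, was called in MS and in no other group against SS. Its SS arrays stood at 12.20, 12.66, 12.05 and 12.26. The MS arrays ran from 11.45 to 12.02 (median 11.92), all below the SS arrays, while SM ran from 11.81 to 12.39 (median 12.04) and MM from 11.93 to 12.51 (median 12.21), both overlapping SS. The differences were -0.44 ± 0.13 in MS (adjusted p = 0.0172), -0.24 ± 0.13 in SM (adjusted p = 0.261) and -0.10 ± 0.13 in MM (adjusted p = 0.641). The MS call rested on SS replicate 2, the highest array. Without it the difference was -0.31 (adjusted p = 0.119), and within slides it was -0.62 and -0.24 (adjusted p = 0.152 and 0.243).

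Of the ER J proteins, Dnajb11, Dnajc3 and Dnajc25 were called lower in MS, while Dnajb9 and Dnajc10 lay above 0 and were not called. Dnajb11, which binds unfolded chains together with BiP, stood at 8.59, 8.99, 8.74 and 8.77 in SS and at 8.09 to 8.45 in MS (median 8.31), with a difference of -0.47 ± 0.09 (adjusted p = 0.000273). In MM it was -0.33 ± 0.09 (adjusted p = 0.00718, and 0.0517 without SS replicate 2) and in SM -0.26 ± 0.09 (adjusted p = 0.0579). Dnajc3, also called P58IPK, an inhibitor of the stress kinase PERK that also works in the ER lumen, stood at 8.55, 8.78, 8.42 and 8.58 in SS. All its MS arrays (7.93 to 8.37, median 8.15) and all its SM arrays (7.89 to 8.41, median 8.26) were lower, whereas MM (8.19 to 8.53, median 8.37) overlapped SS. Its differences were -0.41 ± 0.10 in MS (adjusted p = 0.00292) and -0.35 ± 0.10 in SM (adjusted p = 0.0174, and 0.0878 without SS replicate 2).

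Dnajc10 (ERdj5), a J protein that also reduces disulfide bonds, stood at 10.02, 9.83, 9.86 and 9.63 in SS and gave 0.22 ± 0.08 in MS, 0.08 ± 0.08 in SM and 0.10 ± 0.08 in MM (adjusted p = 0.0567, 0.573 and 0.401). Dnajb9 (ERdj4), which in mouse cells holds the stress sensor IRE1 inactive through BiP, did not pass in any comparison. Its SS arrays stood at 8.69, 7.97, 8.12 and 7.83, and its differences from SS were 0.22 ± 0.16 in MS, 0.26 ± 0.17 in SM and 0.25 ± 0.16 in MM (adjusted p = 0.408, 0.354 and 0.300). SS replicate 1 and MS replicate 1 were the highest arrays of their groups. With the 3 arrays of lowest weight left out, which include both of these, it was called higher in SM and in MM.

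The paired lectin chaperones went in opposite directions. Calreticulin (Calr), the soluble one, stood at 12.66, 12.82, 12.76 and 12.69 in SS, at 11.88 to 12.49 in MS (median 12.37) and at 12.32 to 12.52 in MM (median 12.44). All MS and MM arrays and 5 of 6 SM arrays lay below the SS arrays. The differences were -0.42 ± 0.09 in MS (adjusted p = 0.00147), -0.32 ± 0.09 in SM (adjusted p = 0.0203) and -0.30 ± 0.09 in MM (adjusted p = 0.0166). The MM call was lost without SS replicate 2 (adjusted p = 0.0582), and the SM call without SS replicate 2, SS replicate 3 or SM replicate 1 (0.0679, 0.0537 and 0.0503). All 3 calls were lost with series matrix values and on slide 1 alone. MS, SM and MM gave -0.43, -0.33 and -0.3 on slide 1 (adjusted p = 0.243, 0.567 and 0.458) and -0.41, -0.32 and -0.31 on slide 2 (0.00664, 0.0227 and 0.0186). The SM call was also lost with median scaling and with only the arrays compared.

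Calnexin (Canx), the membrane-bound partner of calreticulin, was the only ER probe called higher than in SS, and was called in each METH group. It stood at 8.08, 7.82, 7.79 and 7.55 in SS, at 7.84 to 8.46 in SM (median 8.24), at 8.01 to 8.55 in MS (median 8.22) and at 8.40 to 8.90 in MM (median 8.51). All MM arrays lay above all SS arrays, and SM and MS overlapped SS. The difference was 0.75 ± 0.12 in MM, 169% of the SS level (adjusted p = 4.53e-05), 0.40 ± 0.12 in MS (adjusted p = 0.0201) and 0.38 ± 0.12 in SM (adjusted p = 0.0422). The MS call was lost without SS replicate 4 (0.32, adjusted p = 0.113), and the SM call without any of SS replicates 2, 3 and 4 and SM replicates 2, 4, 5 and 6 (adjusted p = 0.0653 to 0.195). The slides differed. On slide 1 alone MM, MS and SM gave 0.54, 0.23 and 0.07 (adjusted p = 0.0607, 0.52 and 0.919). On slide 2 alone they gave 0.95, 0.59 and 0.68 (adjusted p = 0.000544, 0.0228 and 0.00975). The promoter windows of both lectin chaperones hold the ER stress element printed above.

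Of 6 tested disulfide isomerases, 3 were called lower in MS, where 9.24% of all probes were called lower. Pdia5 stood at 6.45, 6.81, 6.25 and 6.56 in SS and at 5.70 to 6.02 in MS (median 5.84), with no overlap and a difference of -0.67 ± 0.10, 62.9% of the SS level (adjusted p = 2.12e-05, and 0.00735 and 0.00981 within slides). Pdia4 (ERp72), which carries an additional thioredoxin-like domain, stood at 7.81, 8.18, 7.67 and 7.95 in SS and at 7.45 to 7.63 in MS (median 7.50). Its difference was -0.38 ± 0.08 (adjusted p = 0.00116). Pdia3 (ERp57), which acts on glycoproteins held by calreticulin and calnexin, stood at 10.44, 10.13, 10.17 and 10.06 in SS and at 9.74 to 10.03 in MS (median 9.93).

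Its difference of -0.32 ± 0.08 (adjusted p = 0.00826) was lost without SS replicate 1 (-0.24, adjusted p = 0.0510). Without that array Pdia3 was also lost in SM (adjusted p = 0.104) and in MM (0.0890). In SM, Pdia5 was called at -0.41 ± 0.10 and Pdia4 at -0.27 ± 0.08 (adjusted p = 0.00835 and 0.0290), and in MM Pdia5 was called at -0.40 ± 0.10 (adjusted p = 0.00444) and Pdia4 was not (-0.09 ± 0.08, adjusted p = 0.485). Without SS replicate 2 the SM values of Pdia5 and Pdia4 had adjusted p of 0.0585 and 0.179, and that of Pdia4 also passed 0.05 without SS replicate 4 or SM replicates 1, 2 or 4 (0.0528 to 0.0874). P4hb, the founding isomerase and a subunit of prolyl 4-hydroxylase, gave -0.14 ± 0.08, -0.18 ± 0.08 and -0.06 ± 0.08 in MS, SM and MM (adjusted p = 0.213, 0.145 and 0.615), and Pdia6 gave -0.01 ± 0.08, 0.01 ± 0.08 and 0.14 ± 0.08 (adjusted p = 0.956, 0.962 and 0.217). Pdia2 was detected on 8 arrays only.

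**Figure D3:**
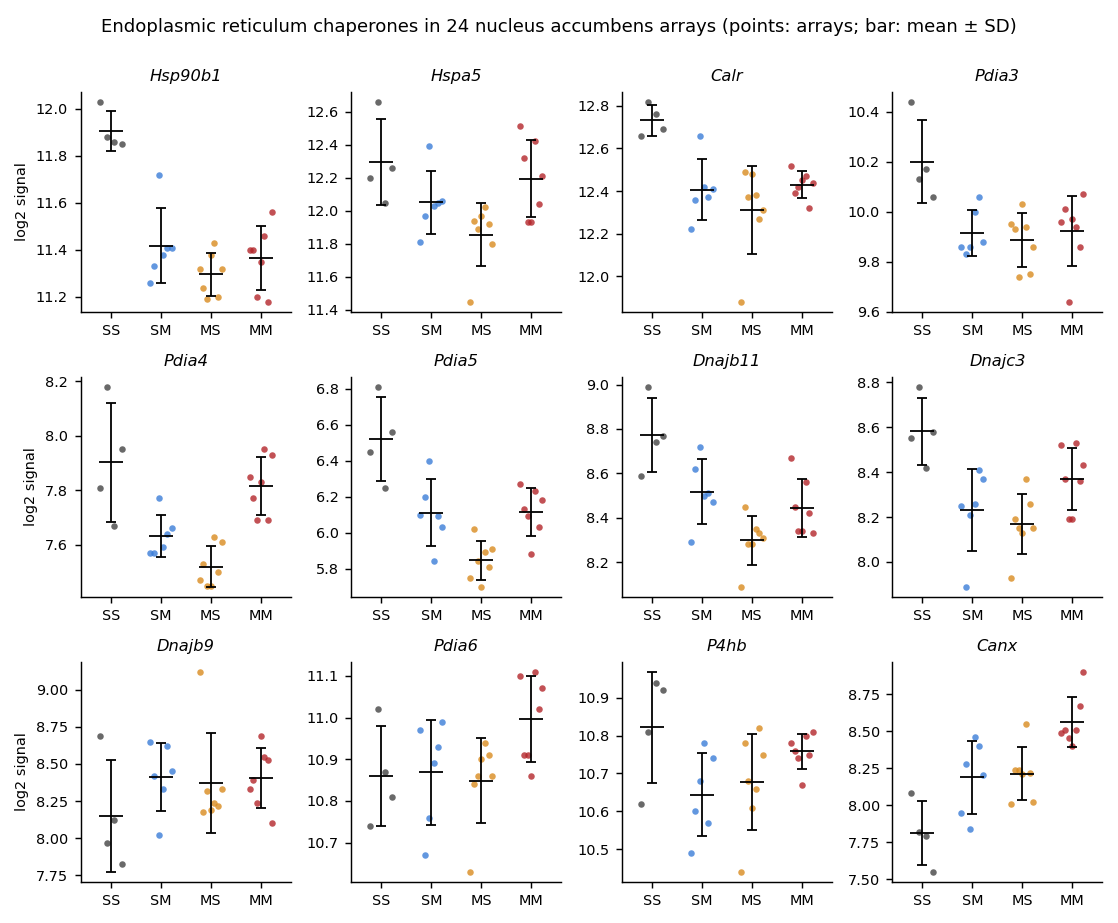
Log2 signal (vertical axis) of 12 ER members in the 4 groups (horizontal axis). Points are arrays, the black bar is the mean and the whiskers are the SD. Hsp90b1, Calr and Pdia5 show all 7 MS points below the 4 SS points, and Canx shows all 7 MM points above them.

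Genes of the ER folding pathway that are not chaperones by symbol were read from a separate list. Of 23 tested, 1 was called higher and 3 lower in MS, 1 and 2 in SM, and 2 and 1 in MM. Over all probes 8.81% were called higher and 9.24% lower in MS, 6.08% and 7.59% in SM, and 11.0% and 11.5% in MM. The counts of the list were near these shares. Ppib, the proline isomerase of the ER, was lower in all 3 groups (-0.30 ± 0.07, -0.31 ± 0.07 and -0.26 ± 0.07, adjusted p = 0.00328, 0.00482 and 0.00905). Creld2, a gene of the unfolded protein response, was lower in MS and SM (-0.41 ± 0.10 and -0.32 ± 0.11, adjusted p = 0.00592 and 0.0449), and Sdf2l1, a partner of Dnajb11, in MS (-0.48 ± 0.16, adjusted p = 0.0317). Tmx1, a membrane-bound disulfide isomerase outside the Pdia symbols, rose in all 3, by 0.92 ± 0.19, 0.76 ± 0.19 and 1.11 ± 0.19 (adjusted p = 0.000793, 0.00832 and 8.72e-05). Atf4, a transcription factor of the stress response, was called higher in MM (0.31 ± 0.08, adjusted p = 0.00524), with 0.12 ± 0.08 in MS and 0.20 ± 0.08 in SM (adjusted p = 0.351 and 0.114).

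The transcription factor gene Xbp1 was not called (-0.07 ± 0.13, 0.13 ± 0.13 and 0.24 ± 0.13), nor was Hyou1, an HSP70-like partner of BiP (0.08 ± 0.09, 0.01 ± 0.09 and -0.02 ± 0.09). Their adjusted p values were 0.764, 0.597 and 0.183 for Xbp1 and 0.584, 0.954 and 0.906 for Hyou1. The stress gene Ddit3, which encodes CHOP, gave -0.31 ± 0.15, -0.06 ± 0.15 and 0.07 ± 0.15 (adjusted p = 0.163, 0.860 and 0.781).

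In the cytosol, the largest difference from SS in each of MS, SM and MM was that of Cryab, or alpha B-crystallin, a small heat shock protein that in brain is found mainly in oligodendrocytes and astrocytes. It stood at 10.75, 11.07, 11.34 and 11.13 in SS, at 9.36 to 10.39 in SM (median 10.04), at 9.50 to 10.10 in MS (median 9.94) and at 10.05 to 10.45 in MM (median 10.30). No array of any METH group reached the lowest SS array. Its level in MS was 43.2% of that in SS (log2 difference -1.21 ± 0.14, adjusted p = 5.58e-07), in SM 47.5% (-1.08 ± 0.14, adjusted p = 8.86e-06) and in MM 57.9% (-0.79 ± 0.14, adjusted p = 0.000157). The MS value was -1.09 and -1.31 within slides (adjusted p = 0.0242 and 3.56e-06). The SM and MM values on slide 1 alone were -0.92 and -0.52 (adjusted p = 0.120 and 0.321).

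Oligodendrocyte marker genes moved in the same arrays. Of 11, 4 were called lower and 1 higher in MS, 7 lower in SM and 4 lower in MM, and their summed level was 14073 to 15308 in SS and 8388 to 12657 elsewhere. Of 7 astrocyte markers 1 was lower and 1 higher in MS. Their part in the Cryab result was not tested. A further small heat shock gene, Hspb1 (HSP27), stood at 7.49, 8.10, 8.22 and 7.88 in SS, at 7.08 to 8.32 in SM (median 7.53), at 6.78 to 7.72 in MS (median 7.13) and at 7.29 to 8.78 in MM (median 8.30). MS overlapped SS by 1 array. Its difference in MS was -0.76 ± 0.26 (adjusted p = 0.0406), and the call was lost when any of 8 arrays was left out, SS replicates 2, 3 and 4 and MS replicates 1, 3, 4, 5 and 7 (adjusted p = 0.0574 to 0.127). SM and MM gave -0.36 ± 0.26 and 0.14 ± 0.26 (adjusted p = 0.426 and 0.762).

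Cytosolic J proteins were called in both directions. Of the 30 tested J-protein probes of all compartments, 3 were called higher and 4 lower in MS, 1 and 3 in SM, and 4 and 3 in MM. Over all probes the shares were 8.81% and 9.24% in MS, 6.08% and 7.59% in SM, and 11.0% and 11.5% in MM. The J-protein counts were near them. Dnajb5 stood at 8.97, 8.94, 8.32 and 8.55 in SS and at 7.38 to 8.20 in MS (median 7.76), with all MS and all MM arrays (7.91 to 8.23, median 8.01) below the SS arrays. Its difference was -0.93 ± 0.12 in MS, 52.3% of the SS level (adjusted p = 2.85e-06), and -0.66 ± 0.12 in MM (adjusted p = 0.000239). SM gave -0.35 ± 0.12 and was not called (adjusted p = 0.0669).

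Dnajb4 was called higher in all 3 groups. It stood at 7.74, 7.18, 7.07 and 7.18 in SS, at 6.99 to 8.30 in SM (median 7.94), at 7.60 to 8.07 in MS (median 7.85) and at 7.74 to 8.22 in MM (median 8.07). SS replicate 1 lay within the METH groups and SM replicate 3 below the SS group. The difference was 0.55 ± 0.17 in MS and in SM (adjusted p = 0.0223 and 0.0344) and 0.75 ± 0.17 in MM (adjusted p = 0.00171). Leaving out SS replicate 2, 3 or 4 ended the call in MS (adjusted p = 0.0691 to 0.0855), and the SM call was also lost without SM replicate 2, 5 or 6 (over all 6 arrays, 0.0719 to 0.118). On slide 1 alone MS, SM and MM gave 0.37, 0.15 and 0.47 (adjusted p = 0.583, 0.908 and 0.419), and on slide 2 alone 0.73, 0.95 and 1.01 (adjusted p = 0.00268, 0.00044 and 0.000105). Two-sided exact permutation tests of Dnajb4 gave p = 0.0182, 0.105 and 0.0121. Dnaja4 was called lower in SM, at -0.32 ± 0.08 (adjusted p = 0.00760), with every SM array (9.65 to 9.83) below every SS array (9.88 to 10.22), and gave -0.22 ± 0.08 in MS (adjusted p = 0.0504). Dnaja1, whose promoter window holds a heat shock element, was not called against SS (-0.21 ± 0.10, 0.03 ± 0.11 and 0.11 ± 0.10 in MS, SM and MM, adjusted p = 0.164, 0.888 and 0.511).

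Of 9 tested HSP70-family probes, BiP included, 3 were called lower in MS (Hspa2, Hspa4 and Hspa5) and 1 each in SM (Hspa2) and MM (Hspa4), and none higher. Over all probes 9.24%, 7.59% and 11.5% were called lower in MS, SM and MM, so the SM and MM counts were near the background. Hspa2, an HSP70 known for its role in the testis, stood at 6.76, 6.90, 6.73 and 6.87 in SS and at 6.22 to 6.70 in MS (median 6.32), with no overlap. Its difference was -0.44 ± 0.09 (adjusted p = 0.00107), and in SM -0.31 ± 0.10 (adjusted p = 0.0304), a call that was lost without SS replicate 2, SS replicate 4 or SM replicate 2 (0.0693 to 0.0956). Hsp90aa1, the inducible cytosolic HSP90, stood at 12.23, 12.01, 11.96 and 11.53 in SS and gave -0.29 ± 0.11, -0.28 ± 0.11 and -0.22 ± 0.11 (adjusted p = 0.0763, 0.109 and 0.162). SS replicates 3 and 4 lay inside the MS range. Without SS replicate 4, the lowest of its group, all 3 differences were called.

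The TRiC complex moved little. None of its 7 tested probes was called in MS or SM, with differences of -0.14 to 0.13 and -0.06 to 0.10. In MM 1 of 7, Cct2, was called higher, where 11.0% of all probes were called higher. Cct2 stood at 10.67, 10.67, 10.68 and 10.58 in SS, at 10.72 to 10.84 in MS (median 10.80) and at 10.85 to 11.02 in MM (median 10.89). All MS and MM arrays lay above the SS arrays, by 0.13 ± 0.06 in MS (adjusted p = 0.109) and 0.27 ± 0.06 in MM (adjusted p = 0.00100). Tcp1 gave 0.02 ± 0.08, 0.04 ± 0.08 and -0.02 ± 0.08 (adjusted p = 0.904, 0.827 and 0.903).

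Mitochondrial members were not called in any of the 6 comparisons, and 1 of 9 in MS against SS and 2 of 9 in MM against MS had an unadjusted limma p under 0.05, as did 29.6% and 13.1% of all probes. Hspd1 (HSP60), the mitochondrial chaperonin, stood at 11.95, 11.92, 11.99 and 11.91 in SS and at 11.85 to 12.21 in the other groups, with differences of 0.01 ± 0.06, 0.03 ± 0.06 and 0.03 ± 0.06. Its lid Hspe1, which shares the stretch printed above, gave -0.25 ± 0.10, -0.21 ± 0.10 and -0.19 ± 0.10 (adjusted p = 0.0773, 0.204 and 0.187). Hspa9, the mitochondrial HSP70, gave -0.12 ± 0.08, -0.06 ± 0.08 and -0.16 ± 0.08 (adjusted p = 0.328, 0.725 and 0.175). Of 4 other mitochondrial folding genes, the disaggregase Clpb was lower in MS and SM (-0.41 ± 0.08 and -0.37 ± 0.08, adjusted p = 0.000647 and 0.00313), and the protease Lonp1 in MS and MM (-0.29 ± 0.10 and -0.28 ± 0.10, adjusted p = 0.0491 and 0.0484).

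In the vesicle cycle, Dnajc6 (auxilin), which helps HSP70 strip clathrin from synaptic vesicles, stood at 7.10, 7.53, 7.44 and 6.83 in SS and at 7.20 to 7.85 in MS (median 7.62). Its differences were 0.34 ± 0.11 in MS (adjusted p = 0.0354), 0.34 ± 0.12 in SM (adjusted p = 0.0509) and 0.41 ± 0.11 in MM (adjusted p = 0.00931). Without SS replicate 4, its lowest array, MS fell to 0.21 and MM to 0.28 (adjusted p = 0.238 and 0.0823), and the MS call was also lost without SS replicate 1 or MS replicate 3, 4, 5 or 7 (0.0555 to 0.0923). Dnajc5, the cysteine string protein that protects synaptic vesicle proteins, was not called against SS (-0.23 ± 0.10, -0.15 ± 0.10 and 0.11 ± 0.10, adjusted p = 0.120, 0.384 and 0.499).

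**Figure D4:**
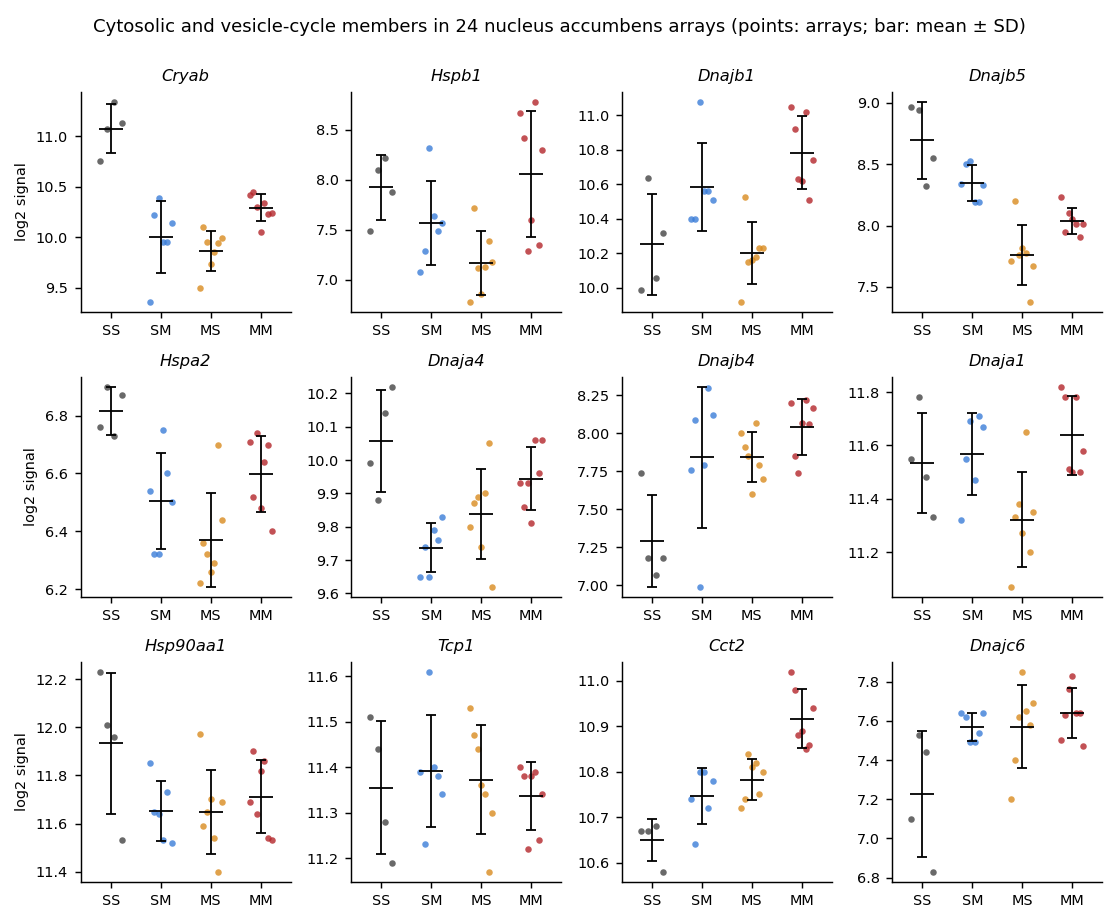
Log2 signal (vertical axis) of 11 cytosolic members and the vesicle-cycle member Dnajc6 in the 4 groups (horizontal axis). Points are arrays, the black bar is the mean and the whiskers are the SD. All METH points of Cryab lie below the SS points, and Cct2 shows all MM points above the SS points.

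The second METH dose was then compared within METH-pretreated rats. In MM against MS 3 member probes were called higher and none lower, where 0.657% of all probes were called higher and 0.471% lower. They were Dnajb1, Hspb1 and Pdia4. Dnajb1 (HSP40), the main heat-inducible J protein, stood at 9.92 to 10.53 in MS (median 10.18) and at 10.51 to 11.05 in MM (median 10.74), with 1 MS array inside the MM range. Its difference was 0.59 ± 0.11, 150% of the MS level (adjusted p = 0.00829). It was 0.68 and 0.51 within slides (adjusted p = 0.562 and 0.0810), and a two-sided exact permutation test gave p = 0.00117. Dnajb1 was also higher in MM than in SS, by 0.53 ± 0.13 (adjusted p = 0.00468), and was at -0.05 ± 0.13 in MS against SS (adjusted p = 0.846).

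Hspb1 was higher in MM than in MS by 0.89 ± 0.22 (adjusted p = 0.0396), but its MM arrays spread from 7.29 to 8.78 and overlapped MS. That call was lost when any of 10 arrays was left out, namely SM replicate 6, MS replicates 1, 3, 4, 5 and 7 and MM replicates 1, 2, 5 and 7 (adjusted p = 0.0506 to 0.118). Pdia4 stood at 7.45 to 7.63 in MS and at 7.69 to 7.95 in MM (median 7.83), with no overlap and a difference of 0.29 ± 0.07 (adjusted p = 0.0276). It was 0.29 and 0.27 within slides, and the call was lost without MS replicate 3 or 4 or MM replicate 1, 5 or 7 (adjusted p = 0.0618 to 0.0826). In each of these 5 cases Dnajb1 was the member that was still called, and without SM replicate 1 or 3 the count rose to 5. The choroid plexus markers, from a tissue next to the brain ventricles, had a summed level of 447 to 8765 in MM and 74 to 110 in MS, and their part in these differences was not tested.

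The remaining ER members were not called in MM against MS, although 16 of 19 ER probes lay above 0 (median 0.10). So did 25 of 34 cytosolic probes (median 0.07) and 49.5% of all probes. Among the ER probes above 0 were Hspa5 at 0.34 ± 0.11 (adjusted p = 0.144), Pdia5 at 0.27 ± 0.09 (adjusted p = 0.136) and Canx at 0.35 ± 0.10 (adjusted p = 0.102). Bag3, a cytosolic partner of HSP70 and of the small heat shock proteins, was the only gene called among 22 of the cytosolic pathway list (0.69 ± 0.13, adjusted p = 0.00418), and none of the 23 ER pathway genes was called. In MM against SM, which compares METH-challenged rats by their first injection, no member was called, and 1.28% of all probes were. At an unadjusted limma p under 0.05 there were 10 of 65 members (15.4%) and 16.0% of all probes, so the members were near the background. The lowest adjusted p of the named members there were 0.0746 for Canx (0.37 ± 0.11) and 0.0855 for Cct2 (0.17 ± 0.05).

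The last contrast set the METH challenge after METH against that after saline. The difference of differences, MM against MS less SM against SS, was called above 0 in 14 of 65 member probes and below 0 in none, where 4.16% of all probes were above and 3.51% below. Of these, 8 were among the 19 ER probes, 5 among the 34 cytosolic probes and 1 was Dnajc5 in the vesicle cycle. The median was 0.26 over ER probes, 0.16 over cytosolic probes and 0.10 over mitochondrial probes, against 0.00 over all probes. In each of the named genes that were called, the challenge gave a value below 0 after saline and above 0 after METH. The 2 sides share no array, but the saline side holds the 4 SS arrays of the comparisons above. A shift in those arrays therefore enters this contrast too.

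For Cryab the challenge gave -1.08 ± 0.14 after saline and 0.42 ± 0.12 after METH, and the difference of 1.5 ± 0.19 had an adjusted p of 8.73e-06 (1.49 and 1.52 within slides, adjusted p = 0.106 and 3.56e-05). For Pdia4 the values were -0.27 ± 0.08 and 0.29 ± 0.07 (difference 0.56 ± 0.11, adjusted p = 0.00136). For Pdia5 they were -0.41 ± 0.10 and 0.27 ± 0.09 (0.67 ± 0.13, adjusted p = 0.00184). Both fell in SM against SS, and in MM against MS Pdia4 was called higher and Pdia5 was not called.

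Hsp90b1 differed mainly through the saline-pretreated side, with -0.48 ± 0.09 against 0.07 ± 0.07 (0.55 ± 0.11, adjusted p = 0.00221). Dnajc3 (0.55 ± 0.13, adjusted p = 0.00749), Hspa2 (0.54 ± 0.12, adjusted p = 0.00709) and Dnaja4 (0.43 ± 0.11, adjusted p = 0.0105) were called whichever single array was left out, but their calls were lost with median scaling, with series matrix values and on each slide alone (highest adjusted p = 0.573, 0.541 and 0.661). That on Hsp90b1 was lost with median scaling, series matrix values and slide 1 alone (highest 0.486), that on Pdia4 with series matrix values and on each slide alone (0.477), that on Pdia5 with series matrix values and slide 1 alone (0.304), and that on Cryab on slide 1 alone (0.106). Without SS replicate 2 the calls on Calr, Dnajb5, Dnajb11, Hspa5 and Hspb1 were lost (adjusted p = 0.0572, 0.0517, 0.1, 0.115 and 0.0527), and the count of members fell from 14 to 8. The call on Calr was also lost with median scaling, series matrix values and slide 1 alone (highest 0.628). Dnajb11 was also lost without SS replicate 4, SM replicates 1 or 6, or MM replicates 1 or 5 (0.0511 to 0.0587), and Hspa5 without any of 10 arrays in all (SS replicates 2 and 4, SM replicates 1, 2, 4 and 5, MS replicate 7 and MM replicates 1, 2 and 5, 0.0501 to 0.115). Hspb1 and Dnajc5 were lost without SS replicate 3 (0.0591 and 0.0505), and Dnajc5 without SS replicate 4 (0.0643). Canx, called higher in each METH group, gave -0.03 ± 0.16 here (adjusted p = 0.946).

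**Figure D5:**
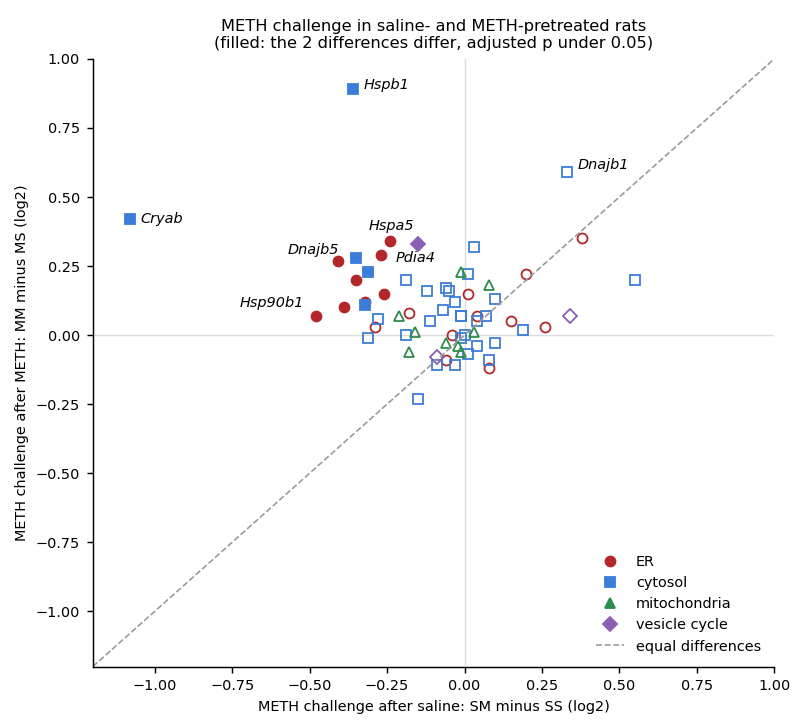
Log2 difference between METH- and saline-challenged rats after saline (horizontal axis, SM minus SS) and after METH (vertical axis, MM minus MS) for 65 member probes. Shape and colour give the compartment, and the line of equal differences is dashed. Filled points, where the 2 differences differed, number 14 and all lie left of 0 and above the line, with Cryab at -1.08 and 0.42.

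In the same contrast 8 of the 12 medium spiny neuron markers and 3 of 11 oligodendrocyte markers were called above 0, and 3 of 10 hypothalamic markers below 0. Also called above 0 were 2 of 3 markers of glutamatergic cortex (median 0.81), 1 of 2 of choroid plexus (median 3.23), 1 of 3 endothelial and 1 of 7 microglial markers, and of 7 astrocyte markers 1 was above and 1 below. Their part in the result was not tested. Of the pathway genes outside the members, Creld2 and Ppib in the ER list (0.55 ± 0.14 and 0.35 ± 0.10, adjusted p = 0.0142 and 0.0210), Clpb in the mitochondrial list (0.57 ± 0.11, adjusted p = 0.00129) and Fkbp5, an HSP90 partner that tunes the glucocorticoid receptor, in the cytosolic list (0.60 ± 0.13, adjusted p = 0.00383) were called, all above 0. Fkbp5 was lower than in SS in each METH group (-0.67 ± 0.10, -0.31 ± 0.10 and -0.38 ± 0.10 in MS, SM and MM, adjusted p = 1.23e-05, 0.0336 and 0.00448). The cytosolic list had 1 gene called higher and 2 lower in MS, 0 and 1 in SM, and 3 and 1 in MM. Over all probes the shares were 8.81% and 9.24% in MS, 6.08% and 7.59% in SM, and 11.0% and 11.5% in MM. The counts of the cytosolic list were near them. Stip1, which links HSP70 to HSP90, was lower in MS (-0.31 ± 0.10, adjusted p = 0.0299), and Bag2 was higher in MS and MM (0.49 ± 0.16 and 0.47 ± 0.16, adjusted p = 0.0343 and 0.0334).

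The counts of members depended on how arrays were brought to 1 scale, and the shares of all probes called under these scales were not recorded. With each array scaled to its median, 0 members were called higher and 9 lower in MS against SS, in place of 4 and 14, and 0 and 2 in SM against SS, in place of 2 and 10. In MM against SS they were 5 and 8, in place of 6 and 9. Of the ER probes 6, 1 and 4 were then called lower in MS, SM and MM, in place of 9, 7 and 5. Of the cytosolic probes 3, 1 and 4 were, in place of 5, 3 and 4. With the deposited matrix values, which are not scaled between arrays, the median over all probes was itself at 0.14, 0.25 and 0.13 in MS, SM and MM against SS, and 1 and 3, 0 and 1, and 3 and 1 members were called higher and lower. With these values 1, 0 and 0 ER probes and 2, 1 and 1 cytosolic probes were called lower, so the ER counts no longer exceeded the cytosolic ones. The ER medians were -0.2, -0.01 and -0.02, and the cytosolic medians 0.02, 0.17 and 0.06.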

How the data were processed

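The authors hybridised total RNA to Illumina rat arrays and processed the scans with BeadStudio (version not given in the sources used here). The deposited table holds raw intensity values and detection p-values, and the deposited series matrix holds log2 intensities centred on each probe's median (floor 1, largest departure 2.32e-06). The detection p-values did not follow the intensities (Spearman's rho -0.00699 to 0.000247 by array) and hold 1 minus the p-value, and were given to them by rank within each array. Intensities were corrected and quantile-normalized with neqc (offset 16) in limma 3.58.1 under R 4.3.3. A probe was kept where 4 or more arrays had a detection p under 0.05, which left 12943. These were fitted with lmFit and eBayes on the 24 arrays together, each group having its own mean, and p-values were adjusted over all of them by Benjamini-Hochberg. SE is that of the fit. The fit was tested on simulated data. Exact permutation tests used scipy 1.17.1. The number of arrays limits the precision. Gene names came from the platform annotation. Genes named were 23 canonical members, the 6 members of smallest p among those called in each comparison and up to 4 pathway genes per comparison and list. Dnajc10, Dnajc25, Hspa4 and Hyou1 were added after their values were seen. The members and lists were chosen with earlier results of these data known. No paired analysis was possible because replicate numbers only name the arrays. Protein sequences were not used here.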

Additional observations from a re-analysis of the deposited data

Results flagged for a closer look

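In 12 of 116 sets of 1 named probe and 1 group, a single array stood apart from the rest of its group, where chance gives about 1 in 20. MS replicate 1 stood apart in 4 of them, at 11.88 for Calr (next array 12.27), 11.45 for Hspa5 (next 11.80), 10.63 for Pdia6 (next 10.84) and, on the high side, 9.12 for Dnajb9 (next 8.33). SM replicate 3 stood apart on the high side in 3, at 11.08 for Dnajb1, 11.72 for Hsp90b1 and 12.21 for Hspd1. SS replicate 1 was high at 7.74 for Dnajb4 and 12.03 for Hsp90b1. The other 3 were SS replicate 4 for Cct2 (10.58), MS replicate 5 for Canx (8.55) and MM replicate 7 for Hspa9 (10.62). SS replicate 1, MS replicate 1 and SM replicate 3 also had the lowest array weights over all probes (0.34, 0.32 and 0.25).

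The difference of differences (MM against MS less SM against SS), into which the SS arrays also enter, was called in 13 named members by limma's test. On the log2 scale it was 1.5 for Cryab, 1.25 for Hspb1, 0.67 for Pdia5, 0.62 for Dnajb5, 0.58 for Hspa5, 0.56 for Pdia4, 0.55 for Hsp90b1 and for Dnajc3, 0.54 for Hspa2, 0.49 for Dnajc5, 0.44 for Calr, 0.43 for Dnaja4 and 0.40 for Dnajb11, with adjusted p from 8.73e-06 to 0.0359. All 13 lay above 0.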

How the results depend on the processing

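Over 36 alternatives the calls on Cryab, Dnajb5 and Pdia5 in MS against SS held, and that on Hsp90b1 was lost with the series matrix values alone (adjusted p = 0.0592). No called result changed its direction. In MS against SS 18 members were called, 9 with median scaling, 4 with series matrix values and 7 on slide 1 alone, and 13 to 20 with single arrays left out. In SM against SS 12 were called, 2 with median scaling, 1 with series matrix values, 0 on slide 1 alone, 4 with only the arrays compared, 21 with 3 arrays of lowest weight left out (SS replicate 1, MS replicate 1 and SM replicate 3, chosen after seeing the data), and 6 to 16 with single arrays left out. In MM against SS 15 were called, 4 with series matrix values, 2 on slide 1 alone and 14 to 16 with single arrays left out. In MM against MS 3 were called, 1 with median scaling, 0 with series matrix values, 0 on each slide alone, 7 with only the arrays compared, 8 with array weights and 1 to 5 with single arrays left out. In MM against SM the count of 0 became 1 (Cct2) with an offset of 50 and with no filter. The difference of differences had 14, with 4 under median scaling, 1 with series matrix values, 0 on slide 1 alone, 8 on slide 2 alone and 8 to 15 with single arrays left out. It had 18 with array weights and 19 with the 3 arrays of lowest weight left out. Under 3 of these settings 1 member was called below 0. They were slide 2 alone (7 above 0, and Dnajb4 at -0.67, adjusted p = 0.0404), array weights (17 above 0) and the 3 arrays left out (18 above 0). Each slide alone holds fewer arrays, with 2 SS arrays each. The share of all probes called was not recorded for any alternative. A change in the members therefore cannot be told apart from a change over the whole array. The cause of the other changes was not tested. Pairing of samples could not be tried, since replicate numbers carry no pairing.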
